A study of Mus musculus with 12 samples.

Results

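Ube3a and Kcnq1 are imprinted genes of mouse chromosome 7 that are each overlapped by a long non-coding antisense RNA, Snhg14 for Ube3a and Kcnq1ot1 for Kcnq1. They were selected by gene symbol from the genes with peaks in a CLIP-seq map of YTHDF1, a cytoplasmic reader protein of N6-methyladenosine whose best-known role is to promote the translation of methylated RNAs. They are 2 of the 1247 genes with a listed value, and both are among the 251 genes listed for both treatments. The genes were picked with their numbers of peaks in view, so those numbers are given as a description and not as a test. CLIP-seq fixes a protein to its RNA with ultraviolet light, pulls the complex down with an antibody to the protein and sequences the bound RNA fragments. The samples came from the striatum of C57BL/6J mice of wild-type genotype that received cocaine or saline, with 3 precipitated (CLIP) and 3 input libraries per treatment, 12 in all. The labels name striatal neurons, but the protocol lyses frozen brain tissue as a whole, and they give neither the dose nor the age of the animals, nor whether libraries came from separate animals. The values are the numbers of CLIP peaks per gene in the 3 cocaine and the 3 saline CLIP libraries, numbered here by column order alone. Values of the input libraries were not used here, so no correction for the abundance of an RNA was added. Whether the numbers of peaks already take the input into account was not stated. In whole tissue, fewer cells of a type and less RNA per cell cannot be told apart.

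Imprinted genes are expressed mainly from the copy of a single parent, for some genes only in certain tissues or stages. The peaks are not assigned to a parental copy, so whether Ube3a or Kcnq1 was so expressed in these samples is not known. Ube3a encodes a ubiquitin ligase of the HECT class. In neurons its paternal copy is silenced by Snhg14, a very long transcript that also carries clusters of small nucleolar RNAs, and loss of the maternal copy in humans causes Angelman syndrome. Kcnq1 encodes the pore subunit of a voltage-gated potassium channel best known from heart and inner ear. Its antisense RNA, Kcnq1ot1, starts inside the gene on the paternal chromosome and silences a cluster of neighbours, among them Cdkn1c and Phlda2, in cis.

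On GRCm38.p6, the assembly that mm10 names, Ube3a lies on chromosome 7 from 59228750 to 59310837, a span of 82.1 kb. Snhg14 lies from 59272737 to 60450177 and covers 38.1 kb of Ube3a, which is 46.4% of that gene and 3.24% of Snhg14. Kcnq1 lies on the same chromosome from 143106877 to 143427050, a span of 320.2 kb. Kcnq1ot1, from 143213111 to 143296547, lies wholly inside it and covers 26.1% of it. Kcnq1 is also overlapped by Gm28821 and 4933417O13Rik, 2 shorter non-coding genes of 5.63 and 7.88 kb. The map of overlapping genes shows these arrangements.

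**Figure D1:**
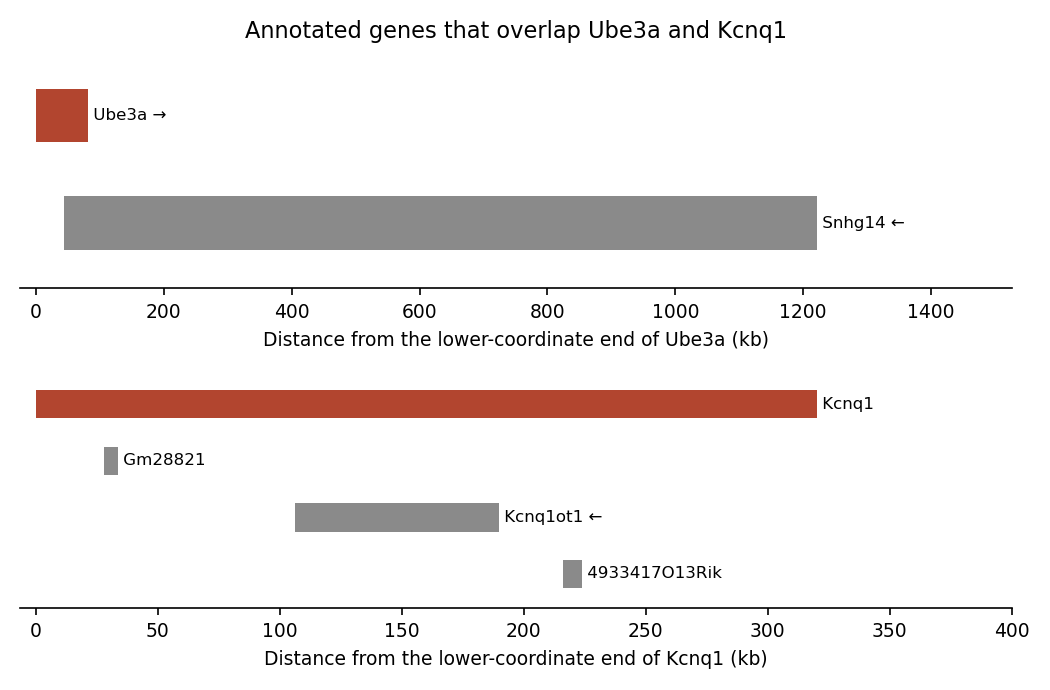
Spans of Ube3a and Kcnq1 (red) and of the genes that overlap them (grey) in the RefSeq annotation, against the distance in kb from the lower-coordinate end of each gene. Arrows give the direction of transcription where the promoter table lists it. Snhg14 enters the far end of Ube3a, whereas Kcnq1ot1 lies inside Kcnq1.

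The promoter windows of Ube3a, Snhg14 and Kcnq1ot1 are shown because they give the annotated start of each and the direction in which it runs. No window was available for Kcnq1, and other starts of these transcripts were not examined. Each window holds 250 bases before and 50 bases after the annotated start, from RefSeq on GRCm38.p6. They are written 5′ to 3′ on the transcribed strand, with CG dinucleotides, the sites of DNA methylation, in capitals.
Ube3a: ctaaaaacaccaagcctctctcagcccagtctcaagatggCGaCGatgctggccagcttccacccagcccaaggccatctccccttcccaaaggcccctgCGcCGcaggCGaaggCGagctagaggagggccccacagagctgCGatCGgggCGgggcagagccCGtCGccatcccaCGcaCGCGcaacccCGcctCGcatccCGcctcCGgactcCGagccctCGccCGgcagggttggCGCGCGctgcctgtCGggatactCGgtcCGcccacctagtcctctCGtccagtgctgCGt
Snhg14: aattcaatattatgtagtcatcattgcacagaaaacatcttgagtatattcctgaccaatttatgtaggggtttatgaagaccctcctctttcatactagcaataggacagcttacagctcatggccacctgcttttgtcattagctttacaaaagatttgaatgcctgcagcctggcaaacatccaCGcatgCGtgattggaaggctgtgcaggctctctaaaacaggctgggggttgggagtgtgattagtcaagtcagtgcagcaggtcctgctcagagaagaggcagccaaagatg
Kcnq1ot1: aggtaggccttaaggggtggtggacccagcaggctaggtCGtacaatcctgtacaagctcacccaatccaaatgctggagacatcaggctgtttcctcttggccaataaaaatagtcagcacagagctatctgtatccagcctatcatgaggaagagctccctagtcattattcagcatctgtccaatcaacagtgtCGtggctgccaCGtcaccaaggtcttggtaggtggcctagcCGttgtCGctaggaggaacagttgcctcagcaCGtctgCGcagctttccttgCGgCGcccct
The Ube3a window (chr7:59228500-59228799) is on the plus strand, and those of Snhg14 (chr7:60450128-60450427) and Kcnq1ot1 (chr7:143296498-143296797) are on the minus strand. The Ube3a window holds 29 CG dinucleotides, a number reached by 12.9% of the 32851 promoter windows in the table, whose median is 7. The Kcnq1ot1 window holds 9, reached by 45.8% of windows, and the Snhg14 window 2, reached by 85.9%. The start of Snhg14 used here lies 1221 kb from that of Ube3a, and the start of Kcnq1ot1 lies 189.7 kb inside Kcnq1. The tables of peaks give no position, so whether any peak lies in these windows is not known.

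Neither antisense RNA was listed under its symbol. None of the 16 names of Snhg14 (its symbol and synonyms, Ube3a-ATS among them) and none of the 4 names of Kcnq1ot1 was in either table. This does not show that they carried no peaks. The cocaine table has no symbol for 327 of its 1049 genes (31.2%), and the saline table for 102 of its 449 (22.7%). Genes below a table's cutoff are also missing, and the lowest mean listed was 6.33 peaks in cocaine and 1.33 in saline. The library kit keeps the strand of the RNA, but the tables give no strand, so peaks on a sense transcript and on its antisense partner cannot be told apart.

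Ube3a had 213, 247 and 212 peaks in the cocaine libraries, against 31, 23 and 26 in the saline libraries. Every cocaine library was above every saline library, and the lowest cocaine value was 6.84 times the highest saline value. The means were 224.0 ± 19.9 peaks in cocaine libraries and 26.7 ± 4.04 in saline libraries (SD, n = 3 each), a ratio of 8.4.

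Kcnq1 had 242, 187 and 238 peaks in the cocaine libraries, against 42, 26 and 34 in the saline libraries. The groups did not overlap here either, and the lowest cocaine value was 4.45 times the highest saline value. The means were 222 ± 30.7 in cocaine and 34.0 ± 8.0 in saline (SD, n = 3 each), a ratio of 6.54. Among all 251 genes in both tables, 77.7% had every cocaine library above every saline library, so the direction shared by Ube3a and Kcnq1 is that of most genes. The lowest mean listed was 6.33 peaks in cocaine and 1.33 in saline. Genes with few peaks were thus held to a higher floor in cocaine, which favours this direction among them.

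**Figure D2:**
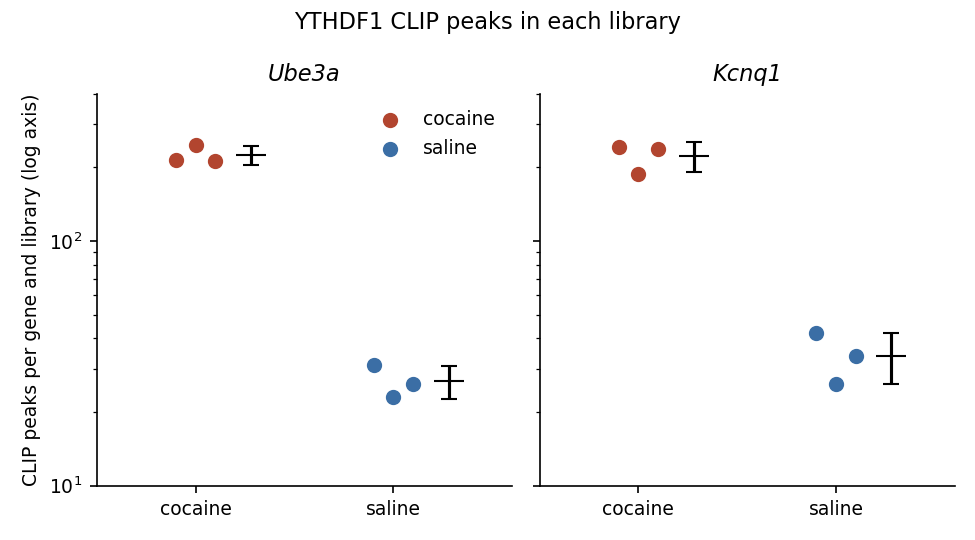
Number of CLIP peaks (log axis) of Ube3a and Kcnq1 in each library, with the mean and SD of the 3 libraries as a bar beside the points. Cocaine libraries (red) hold 187 to 247 peaks for these genes and saline libraries (blue) 23 to 42.

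The totals of listed peaks differed in the same direction. Over all listed genes, 1049 in cocaine and 449 in saline, the cocaine libraries held 24770 to 25528 peaks and the saline libraries 3720 to 3944. The ratio between the means was 6.57. Over the 251 genes in both tables alone, the ratio of the totals was 4.23. How many reads each library had is not known, and the part of sequencing depth in the difference was not tested. The ratio of Ube3a was above both ratios of totals. That of Kcnq1 was almost equal to the ratio over all listed genes and above that over the genes in both tables. The median ratio over the 251 genes, under the same unequal floors, was 4.54, with 29 genes above Ube3a and 64 above Kcnq1. Among the 31 genes with more than 100 peaks in cocaine the median was 7.49, with 10 genes above Ube3a and 18 above Kcnq1. The plot of the genes in both tables shows both in the upper part of the main cloud.

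**Figure D3:**
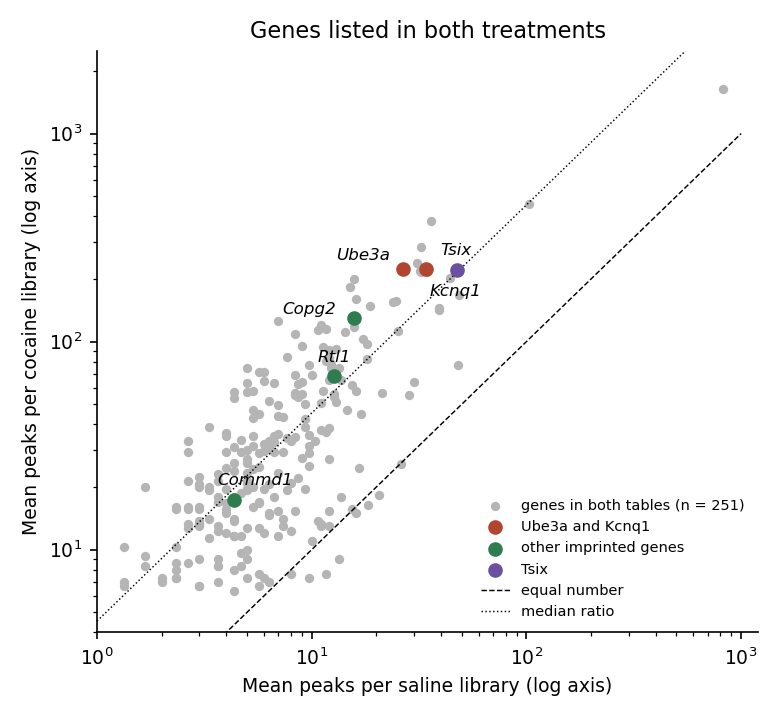
Mean peaks per cocaine library against mean peaks per saline library (log axes) for the 251 genes in both tables, with Ube3a and Kcnq1, 3 other imprinted genes and Tsix marked. The dashed line marks equal numbers and the dotted line the median ratio of 4.54. Ube3a and Kcnq1 lie above the dotted line and Tsix lies close to it.

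As a share of all listed peaks of its library, Ube3a took 0.834, 0.997 and 0.851% in cocaine, against 0.818, 0.618 and 0.659% in saline. Its cocaine shares were all above its saline shares, although the closest values were 0.834% in cocaine and 0.818% in saline. In all, 16 of the 251 genes (6.37%) had all cocaine shares above all saline shares, and Ube3a, picked with these values known, was among them, so its values are a description. Kcnq1 took 0.948, 0.755 and 0.955% in cocaine, against 1.11, 0.699 and 0.862% in saline. Its shares overlapped, with means of 0.886 ± 0.114% in cocaine and 0.890 ± 0.206% in saline (SD, n = 3 each). All these shares rest on totals over unlike sets of genes, 1049 in cocaine and 449 in saline. The 251 genes in both tables held 54.5 to 55.9% of listed peaks in cocaine and 85.4 to 86.0% in saline.

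The genes in both tables were also fitted together with edgeR's quasi-likelihood test, which compares a gene's share of the tested genes' peaks on totals scaled by TMM factors. Of 202 genes tested, 57 were called at an FDR of 0.05 (28.2%), 21 with a higher share in cocaine (10.4%) and 36 with a lower share (17.8%). Ube3a was among the 21, with a log2 difference in share of 0.76 (SE 0.20), the 30th highest of the 202. Kcnq1 was not called, with a log2 difference of 0.40 (SE 0.21), the 61st highest. Since Ube3a was picked with these values known, its place among the called genes is a description.

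These differences depended on which total stood for a library. With the total of all listed peaks in place of the scaled total of the tested genes, the log2 difference of Ube3a was 0.36 (SE 0.20) and that of Kcnq1 -0.0065 (SE 0.21), neither called. That choice moved the median over all tested genes to -0.43, against -0.02 with TMM factors, and left 4 genes higher and 47 lower. Relative to that median both genes were still on the high side. Without TMM factors the median was 0.19, 31 genes were higher and 29 lower, the difference of Ube3a was 0.98, and that of Kcnq1 was 0.61 and was called. Without cocaine library 2, which has the highest value of Ube3a and the lowest of Kcnq1, the differences were 0.69 and 0.52, Ube3a was no longer called, and 37 of the 202 genes were.

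**Figure D4:**
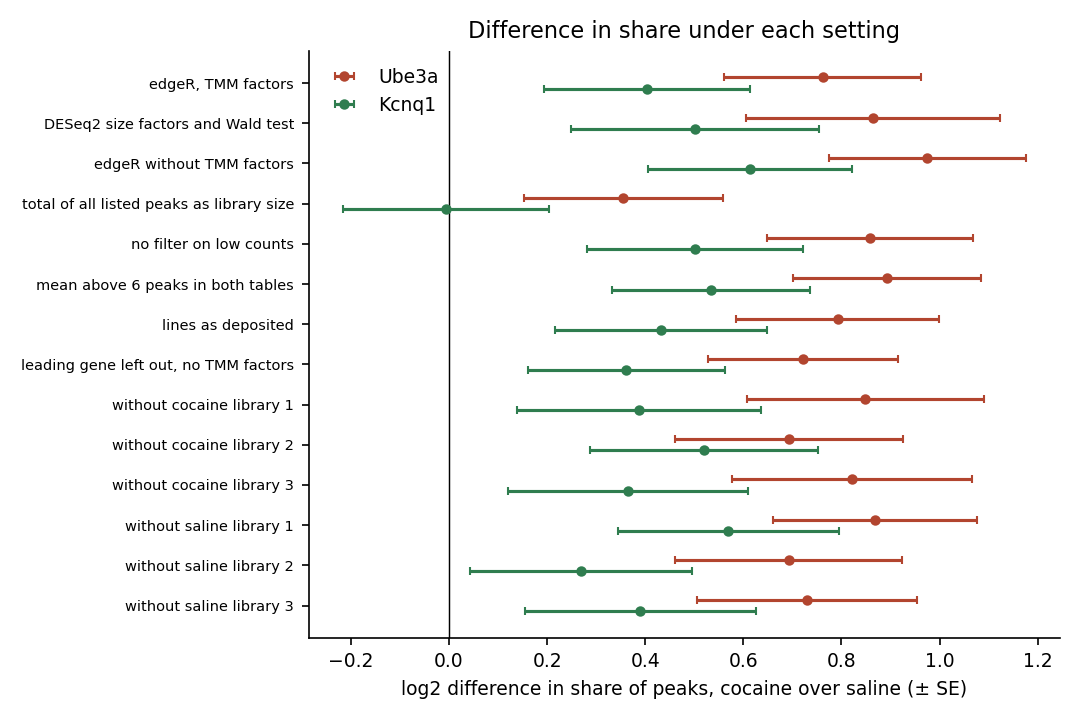
Log2 difference in share of peaks, cocaine over saline, of Ube3a (red) and Kcnq1 (green) under each setting, with bars of 1 SE. The value of Ube3a is above 0 and above that of Kcnq1 in every setting shown, and the value of Kcnq1 is at 0 with the total of all listed peaks.

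Because both genes are counted in the same library, the number of Kcnq1 peaks over the number of Ube3a peaks does not depend on the library's total. This ratio was 1.14, 0.757 and 1.12 in the cocaine libraries, against 1.35, 1.13 and 1.31 in the saline libraries. All but cocaine library 2 held more peaks for Kcnq1 than for Ube3a. The means were 1.01 ± 0.215 in cocaine and 1.26 ± 0.118 in saline (SD, n = 3 each), and the values overlapped narrowly, at 1.14 in cocaine and 1.13 in saline. Relative to Ube3a, Kcnq1 was thus lower in cocaine by 0.26 on average, about the spread between libraries.

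Per length the genes were unlike. Over its annotated span Ube3a carried 273 ± 24.3 peaks per 100 kb in cocaine and 32.5 ± 4.92 in saline, and Kcnq1 69.4 ± 9.58 and 10.6 ± 2.50 (SD, n = 3 each). The density of Ube3a was 3.93 times that of Kcnq1 in cocaine and 3.06 times in saline. Among the 714 cocaine genes that could be given a span, Ube3a ranked 60th and Kcnq1 247th by density, where the median was 39.0 peaks per 100 kb. Among 344 saline genes they ranked 53rd and 120th, with a median of 5.0. Kcnq1 was one of the long genes, with the 85th longest span of the cocaine genes, whose median span was 36.7 kb.

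Both genes varied less between libraries than most listed genes. The coefficient of variation was 8.90% for Ube3a and 13.8% for Kcnq1 in cocaine, and 15.2% and 23.5% in saline. The median over all listed genes was 37.3% in cocaine and 36.5% in saline. Genes with as many peaks varied as little, with a median of 12.98% over the 31 cocaine genes above 100 peaks and 22.0% over the 24 saline genes above 20.

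The pattern most like that of each gene was sought among the 251 genes in both tables, as the smallest Euclidean distance between log2 peaks over the 6 CLIP libraries, not scaled for length. Kcnq1 was the nearest gene with a symbol to Ube3a, at a distance of 0.77, where the median gene lay at 6.88. The non-coding 9630028H03Rik (0.78) and Pigk, a gene of GPI anchor attachment (0.95), followed. For Kcnq1 the nearest with a symbol were 9630028H03Rik (0.50), Ube3a (0.77) and Pigk (1.07). With genes without a symbol counted too, Kcnq1 was the 2nd nearest to Ube3a, and Ube3a the 3rd nearest to Kcnq1. The peaks of 9630028H03Rik numbered 232, 211 and 204 in cocaine, against 35, 26 and 42 in saline. The 6 libraries share depth and treatment, and the distance mostly reflects how many peaks a gene had.

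No annotated neighbour of either gene was listed by symbol. Within 1 Mb of Ube3a, RefSeq annotates 225 other genes, 206 of them small nucleolar RNAs and 3 of them coding, and 0 were in either table. Within 1 Mb of Kcnq1 it annotates 81 others, 45 of them coding, and again 0 were listed. Of all coding symbols 3.36% were listed, so absence is what most genes show. Imprinted genes of the wider Ube3a cluster were searched by symbol, without a limit of distance. Of these, neither Snrpn, which encodes a splicing protein, nor Ndn or Magel2, of the necdin and MAGE family, had a listed value. Around Kcnq1 neither Cdkn1c, a cyclin-dependent kinase inhibitor gene, nor Phlda2, Ascl2, Igf2 or H19 had one.

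Over 96 imprinted gene symbols of the mouse, 7 were listed, 7 of them in cocaine and 5 in saline. Without Ube3a and Kcnq1, which were chosen because they are listed, 5 of 94 were (5.32%), and 89 of the 94 are in RefSeq. Of all coding symbols 3.36% were listed and of all long non-coding RNA symbols 1.24%, differences that were not tested. The 5 listed genes were Copg2, Rtl1, Commd1, Herc3 and Igf2r. Copg2, a subunit gene of the COPI vesicle coat, had 134, 147 and 107 peaks in cocaine, against 14, 17 and 16 in saline. Rtl1, a retrotransposon-derived gene known for its role in placenta, had 79, 71 and 54 peaks in cocaine, against 8, 14 and 16 in saline. Commd1, a gene of copper and endosomal trafficking, had 18, 19 and 15 peaks in cocaine, against 4, 3 and 6 in saline. These 3 genes were above saline in every cocaine library, as were 77.7% of shared genes. Herc3, a HECT-family ligase gene like Ube3a, had 24, 7 and 13 peaks in cocaine and no listed value in saline. Igf2r, the receptor gene that clears insulin-like growth factor 2, had 12, 9 and 7 peaks in cocaine and no listed value in saline.

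**Figure D5:**
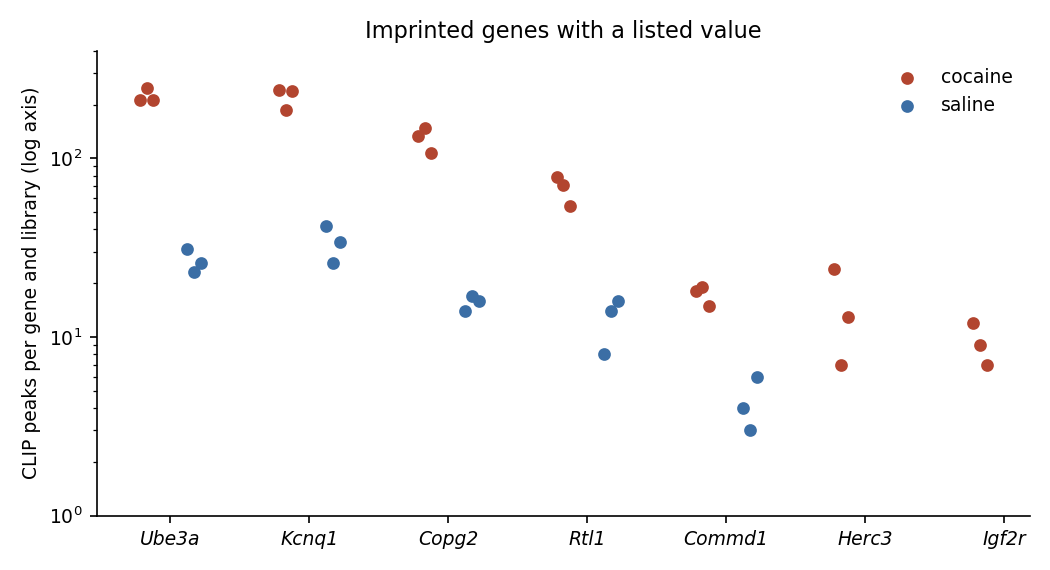
Number of CLIP peaks (log axis) in each cocaine (red) and saline (blue) library for the 7 imprinted genes with a listed value. The groups do not overlap in the 5 genes listed for both treatments. Herc3 and Igf2r have no saline points because they are not in that table.

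In the fit over all shared genes, Copg2 had a higher share in cocaine, with a log2 difference of 0.73 (SE 0.26, edgeR adjusted p = 0.0481). Over the settings that left out 1 library this difference was 0.64 to 0.87, and with the total of all listed peaks it was 0.33. Its adjusted p ranged from 0.0128 to 0.388 over the other settings and missed the threshold in 8 of 13, among them those without cocaine library 1 (0.0965) or 2 (0.148) and without saline library 1 (0.131), 2 (0.0618) or 3 (0.0888). Rtl1 (0.11, SE 0.35) and Commd1 (-0.30, SE 0.43) did not pass, and the sign of Rtl1 turned with the total of all listed peaks (-0.29).

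Each of these 7 genes overlaps another annotated gene, and 0 of the 7 had an overlapping gene with a listed symbol. Igf2r is overlapped over 32.5% of its span by Airn, the antisense RNA that silences it on the paternal chromosome in tissues where Igf2r is imprinted. Whether it does so in striatum was not tested. Rtl1 is overlapped by the non-coding Meg3, 6430411K18Rik and Rian and by a series of microRNA genes of its locus, Mir127 and Mir433 among them. Copg2 is overlapped over 7.36 kb by the non-coding Gm38781 and meets the imprinted gene Mest at its end over 0.913 kb. Commd1 holds the imprinted Zrsr1, and Herc3 holds the imprinted Nap1l5. Overlap was common in the tables as a whole. Of 735 listed coding symbols 77.4% overlap another gene, and of those that do 13.9% have a listed partner. Overlap with a non-coding RNA gene in particular held for 42.1% of the 126 coding genes in both tables and for 17.8% of all coding genes, and the listed genes were longer, with a median span of 91.3 kb in both tables, against 17.1 kb over all coding genes.

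Among 18 RNAs of imprinting and X inactivation, Tsix alone was listed under its symbol (5.56%). Of all long non-coding RNA symbols 1.24% were listed, a difference that was not tested. Tsix is the antisense RNA of Xist and so, unlike Ube3a and Kcnq1, is itself the regulatory antisense transcript of its pair. It had 225, 221 and 216 peaks in cocaine, against 50, 66 and 27 in saline. The cocaine libraries were close together and the saline libraries far apart. Its log2 difference in share was -0.10 (SE 0.24), not called, and its sign varied with the scaling: it was 0.0046 with DESeq2 and 0.11 without TMM factors.

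Of 30 genes of Ube3a partners and ubiquitin enzymes, Ube3a included, 2 were listed (6.67%). Ube3a was chosen because it is listed, so this share cannot be compared with the 3.36% of all coding symbols. The other listed gene was Wwp1, a HECT ligase gene, with 9, 9 and 10 peaks in cocaine and no listed value in saline. Herc2, whose product binds and activates the Ube3a protein, was in neither table. Of 22 genes of Kcnq channels and their partners, 2 were listed (9.09%), among them Kcnq1, which was likewise chosen because it is listed. The other one was Kcnq3, a subunit gene of the neuronal M current, with 2, 1 and 2 peaks in saline and no listed value in cocaine. Kcnq5, another neuronal channel gene of the family, was in neither table. Per 100 kb, Wwp1 carried 9.27 ± 0.573 peaks in cocaine against 273 for Ube3a, and Kcnq3 0.555 ± 0.192 in saline against 10.6 for Kcnq1.

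The tables give little hold on the labelled cell type. Of 20 markers of striatal neurons 1 was listed (5.0%). Since 3.36% of all coding symbols were listed, a low count is not particular to these markers. The listed marker was the GABA synthesis gene Gad1, with 5, 2 and 2 peaks in saline and no listed value in cocaine. Drd1, Drd2 and Ppp1r1b were not listed. Of other cell types, 1 of 12 oligodendrocyte, 0 of 10 astrocyte, 2 of 10 microglia and 2 of 10 vascular markers were listed. Cnp, of oligodendrocytes, had 29, 43 and 44 peaks in cocaine, against 4, 3 and 3 in saline. P2ry12, of microglia, had 20, 18 and 24 peaks in cocaine, against 3 in each saline library. Cx3cr1, also of microglia, had 25, 27 and 36 peaks in cocaine and no listed value in saline. Of the vascular markers, Tek had 17, 15 and 7 peaks in cocaine and no listed value in saline, whereas Pecam1 had 4, 3 and 2 peaks in saline and no listed value in cocaine. The part of cell composition in the results for Ube3a and Kcnq1 was not tested.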

How the data were processed

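Reads were trimmed with cutadapt and aligned with STAR to mm10, per the submitters' processing notes, without versions. By their names the tables hold output of the peak caller CLIPper. Its settings, any use of input and the rule that tied a peak to a gene were not stated in the labels or files. The authors deposited counts, namely the number of CLIP peaks of a gene, in 3 columns per treatment, per the file headers. A deposited score column holds the authors' mean of the 3 columns and was used only to check them. A table was given to a treatment by the letter c or s in its name, which opens the library names in the labels. Genes repeated under several symbols were counted once, and genes absent from a table were treated as unknown. The columns carry no replicate numbers, and spread between libraries may be technical.

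The shared genes were compared in edgeR 4.0.16 (filterByExpr with a minimum count of 10, TMM factors, quasi-likelihood test with Benjamini-Hochberg adjustment, R 4.3.3), with DESeq2 1.42.0 as an alternative. The test was checked on simulated data with as many raised as lowered genes, which cannot check the choice of library total. Coordinates, synonyms and gene classes came from RefSeq on GRCm38.p6 by symbol, and promoter sequences from the RefSeq promoter table of that assembly, where Ube3a, Snhg14 and Kcnq1ot1 were matched. Depth is known only as peaks, which are not independent within a gene. Genes named in the text are Ube3a and Kcnq1, their overlapping genes, every listed member of the gene lists and the 3 nearest patterns with a symbol; unlisted genes were named as examples after the lists had been searched. The genes and lists were chosen with earlier results of these data known.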

Additional observations from a re-analysis of the deposited data

How the results depend on the processing

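Over the settings that left out 1 library, the log2 difference in share of Ube3a ranged from 0.69 to 0.87, that of Kcnq1 from 0.27 to 0.57, and the number of called genes from 37 to 53, against 57 with all libraries. The ratio of peaks, cocaine over saline, ranged from 7.86 to 9.14 for Ube3a and from 5.85 to 7.41 for Kcnq1, and Kcnq1 over Ube3a from 0.940 to 1.13 in cocaine and from 1.22 to 1.33 in saline. With the total of all listed peaks, Ube3a (0.36) was no longer called and Kcnq1 (-0.0065) and Rtl1 (-0.29) changed sign. Without TMM factors Kcnq1 (0.61) was called. The sign of Tsix turned with DESeq2 (0.0046), without TMM factors (0.11), with a mean above 6 peaks in both tables (0.023) and without saline library 2, and that of Rtl1 without saline library 1. Without 1 library, Tsix ranged from -0.40 to 0.24 and Rtl1 from -0.14 to 0.30. The cause was not tested. A setting chosen after seeing the data, with the leading gene left out and no TMM factors, gave 0.72 for Ube3a and 0.36 for Kcnq1. No paired analysis was possible because the columns carry no replicate numbers. With 3 libraries against 3, an exact permutation test cannot go below p = 0.1. Depth limits every value, since the reads behind a library are unknown.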

Other observations

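The density of peaks bears on where the counted peaks can lie. In cocaine, Ube3a carried 1 peak per 366 bases of its annotated span and Kcnq1 1 per 1440 bases. Of the 714 cocaine genes with a span, 14 held more than 1 peak per 100 bases, and in saline 1 of 344 did. The extreme among the genes named here was 9630028H03Rik, whose RefSeq span of 2.69 kb would hold 1 peak per 12.5 bases in cocaine and 1 per 78.4 in saline. Its pattern over the libraries was the nearest to that of Kcnq1. Whether peaks were counted over other gene models, or given to a gene from outside its span, was not tested, and the densities of Ube3a and Kcnq1 rest on the RefSeq span in the same way.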
